A study of Homo sapiens with 6 samples.

Results

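Keratins, vimentin and 2 epithelial adhesion genes were followed at the transcript level in PC3, an established human prostate cancer cell line, and in PC3-DR, its docetaxel-resistant derivative. The members were 10 transcript rows of 9 genes, chosen by identifier and not by level, and all 10 were present among the 102731 rows of the deposited mRNA table. They were 1 row each for KRT8 (ENST00000293308), KRT18 (ENST00000388835), KRT19 (ENST00000361566), KRT7 (ENST00000331817), KRT5 (ENST00000252242), KRT14 (ENST00000167586), CDH1 (ENST00000261769) and EPCAM (ENST00000263735), and 2 rows for VIM, of which the first is ENST00000224237 and the second ENST00000544301. Each value therefore belongs to a listed transcript and not to the whole gene, and other transcripts of these genes were not analysed here.

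Total RNA was sequenced from 3 PC3 libraries and 3 PC3-DR libraries, both lines grown with 10% serum. PC3-DR cells had received docetaxel, a taxane that stabilises microtubules, in 5 cycles of 48 h at 4 and 8 nM and then 12 cycles of 48 h at 8 and 12 nM. They were next kept in drug that began at 10 nM and went up in steps of 5 nM to 50 nM, and finally at 40 nM for 1 month. Each line is a single cell line, the labels do not state whether the resistant line is a clone, and they do not state whether libraries of a line came from separate cultures, so the p-values measure the spread between these libraries, which may be technical.

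Keratins are intermediate filament proteins that assemble only as pairs of a type I and a type II chain. KRT8 (type II) and KRT18 (type I) form the basic pair of simple epithelia, where KRT7 (type II) and KRT19 (type I) are also found, while KRT5 (type II) and KRT14 (type I) form the pair of basal cells, including those of the prostate. Vimentin is the intermediate filament of mesenchymal cells, and carcinoma lines such as PC3 can carry it together with keratins. E-cadherin, encoded by CDH1, joins epithelial cells at adherens junctions, and EPCAM is a cell surface glycoprotein of most epithelia. Loss of E-cadherin and keratins with gain of vimentin is the usual description of an epithelial-mesenchymal transition.

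RefSeq promoter sequence was matched by symbol for 3 of the 9 genes, KRT8, KRT5 and VIM, and is shown so that the member with the clearest separation of the lines (KRT8) stands beside the basal keratin of the same type and the mesenchymal filament gene. The lines below give the 250 bases before the annotated start in GRCh38.p14, 5′ to 3′ on the strand of the gene. KRT8 lies on the minus strand at chr12:52926470-52926719, KRT5 on the minus strand at chr12:52520395-52520644 and VIM on the plus strand at chr10:17227991-17228240. Capitals mark matches on either strand to any of 4 short motifs. A GC box was searched as GGGCGG and a TATA box as TATAAA. The AP-1 site, bound by FOS and JUN proteins, was searched as TGACTCA. The E-box form known from repressors of CDH1 such as SNAI1 was searched as CAGGTG.
KRT8: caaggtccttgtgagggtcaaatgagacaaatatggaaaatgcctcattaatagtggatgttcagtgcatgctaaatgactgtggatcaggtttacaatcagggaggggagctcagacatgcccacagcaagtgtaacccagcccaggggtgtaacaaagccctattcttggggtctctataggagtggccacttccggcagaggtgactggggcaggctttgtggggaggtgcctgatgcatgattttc
KRT5: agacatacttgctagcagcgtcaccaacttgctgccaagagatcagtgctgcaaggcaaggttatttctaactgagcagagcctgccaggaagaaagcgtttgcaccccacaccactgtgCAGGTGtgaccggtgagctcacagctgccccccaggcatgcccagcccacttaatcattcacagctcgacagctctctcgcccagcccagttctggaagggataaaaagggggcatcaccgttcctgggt
VIM: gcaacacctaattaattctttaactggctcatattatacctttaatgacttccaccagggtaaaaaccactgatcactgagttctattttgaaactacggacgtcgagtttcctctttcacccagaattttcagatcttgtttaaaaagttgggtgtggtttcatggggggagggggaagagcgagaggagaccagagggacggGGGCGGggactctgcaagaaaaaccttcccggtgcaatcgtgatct

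The KRT8 window held 0 matches to the 4 motifs, the KRT5 window held 1 E-box, from 130 to 125 bases before the start, and the VIM window held 1 GC box, from 46 to 41 bases before it. Over 35114 promoter windows of the same length, 42.6% held the GC box, 17.5% the E-box, 10.7% the TATA box and 4.20% the AP-1 site. None of the motifs overlapped another in these windows. Whether the listed KRT8 row starts at this annotated site was not tested.

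The libraries differed in ways that touch every member. Library totals read off the values were between 14411000 and 16186000 in 5 libraries and 43153000 in PC3-DR replicate 1. PC3 replicate 3 had 48.3% of all mRNA-table rows at 0, against between 31.4% and 37.7% in the other 5. In PC3-DR replicate 1 the median of the 24937 rows that entered the test was 0.68 FPKM (reads scaled for transcript length and library total), against between 1.32 and 1.67 FPKM elsewhere. Well-expressed rows behaved otherwise: over the 214 tested rows outside the members with a mean of at least 10 FPKM, PC3 replicates 1 to 3 had median levels of 16.9, 11.7 and 5.29 FPKM, and the resistant replicates 1 to 3 had 31.7, 15.0 and 18.8 FPKM. PC3 replicate 3 was the lowest library in 76.6% of these 214 rows, and PC3-DR replicate 1 the highest in 80.8%. The mean that picked these rows includes PC3-DR replicate 1, so a high value there helps a row to enter. Over all 24937 tested rows PC3-DR replicate 1 was the highest in 12.0% and the lowest in 39.6%. There PC3 replicate 3 was the lowest in 20.6%. Group differences of the tested members are therefore given below with and without these 2 libraries.

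**Figure D1:**
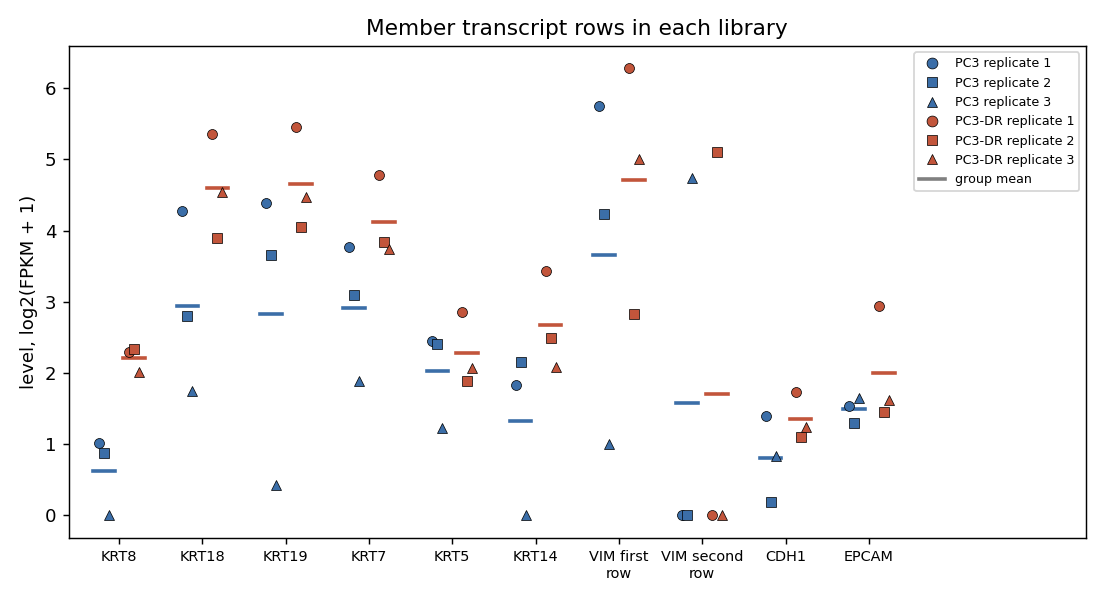
Level of each member row on the log2(FPKM + 1) axis, with 1 symbol per library (blue PC3, red PC3-DR; circle, square and triangle for replicates 1, 2 and 3) and a bar at the mean of the 3 log values. KRT8 is the row in which the 3 PC3-DR symbols all lie above the 3 PC3 symbols, and PC3 replicate 3 is the lowest symbol in 7 of the 10 rows.

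PC3 replicates 1 to 3 held KRT8 transcript, the type II chain of simple epithelia, at 1.02, 0.84 and 0 FPKM. PC3-DR replicates 1 to 3 held it at 3.93, 4.04 and 3.03 FPKM. All 3 PC3-DR libraries lay above all 3 PC3 libraries, and KRT8 was the one member of the 10 whose groups did not overlap. Mean levels were 0.62 ± 0.54 FPKM for the parental line and 3.67 ± 0.56 FPKM for the resistant line (SD, n = 3 each), a 5.94-fold ratio. Among all mRNA-table rows it stood at percentiles 73.7 and 67.2 of PC3 replicates 1 and 2 and at 98.1, 98.5 and 96.1 of the PC3-DR replicates. In PC3 replicate 3, where 48.3% of all rows were tied at 0, no row lay below KRT8. It rested on 31, 23 and 0 reads in PC3 and on 319, 122 and 89 reads in PC3-DR, and 0 reads in PC3 replicate 3 allow a level of up to 0.11 FPKM (3 reads, counting error only). On the log2(FPKM + 1) scale the difference was 1.59 ± 0.38 (SE; 95% interval 0.74 to 2.43). Its limma p was 0.00192 before adjustment and 0.424 after adjustment over all rows tested. It thus missed the threshold of 0.05. KRT8 entered the test through the PC3-DR libraries, where it was high, since 1 PC3 library reached 1 FPKM, so its p is a description. Without the filter the adjusted p was 0.774 in limma. The difference was 1.23 without PC3 replicate 3 and PC3-DR replicate 1. Of all tested rows, 4.11% had groups that did not overlap with PC3-DR higher, and 1 of the 10 members had. In these bulk samples a lower share of cells that carry a transcript and less of it per cell cannot be told apart.

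KRT18 transcript, the type I partner of KRT8, measured 18.3, 6.0 and 2.35 FPKM in the parental replicates 1 to 3. The resistant replicates, in the same order, had 39.8, 13.9 and 22.3 FPKM. The groups overlapped, because PC3 replicate 1 lay above PC3-DR replicate 2. Group means were 8.87 ± 8.34 FPKM for PC3 and 25.4 ± 13.2 FPKM for PC3-DR (SD, n = 3 each). The difference on the log2(FPKM + 1) scale was 1.66 ± 0.63 (SE; 95% interval 0.25 to 3.07; limma adjusted p = 0.761). It was 0.69 when PC3 replicate 3 and PC3-DR replicate 1 were left out, where the means were 12.1 and 18.1 FPKM.

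KRT19 transcript, a type I keratin of simple epithelia, spread widely within PC3, with 19.8, 11.7 and 0.35 FPKM in replicates 1 to 3, the last from 7 reads. The resistant replicates 1 to 3 read 42.7, 15.5 and 21.2 FPKM. Its groups overlapped, and without the 2 libraries above its means were 15.7 FPKM for the parental and 18.3 FPKM for the resistant line. The difference was 1.83 ± 0.88 on the log2(FPKM + 1) scale (SE, adjusted p = 0.832 in limma) with 6 libraries and 0.24 with the remaining 4.

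KRT7 transcript, a type II keratin of simple epithelia, had 12.6, 7.56 and 2.69 FPKM over PC3 replicates 1 to 3. Over the PC3-DR replicates it had 26.4, 13.4 and 12.4 FPKM. The lowest PC3-DR library lay just under the highest PC3 library. The difference was 1.21 ± 0.53 (SE, adjusted p = 0.818 in limma) and was 0.37 without PC3 replicate 3 and PC3-DR replicate 1. For KRT18, KRT19 and KRT7 those 2 libraries were the lowest and the highest, so leaving them out had to narrow the difference. The highest KRT8 library was PC3-DR replicate 2, so KRT8 was not trimmed alike and its smaller drop cannot be set against theirs. Most other rows with a mean of at least 10 FPKM also took their extremes in those 2 libraries.

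**Figure D2:**
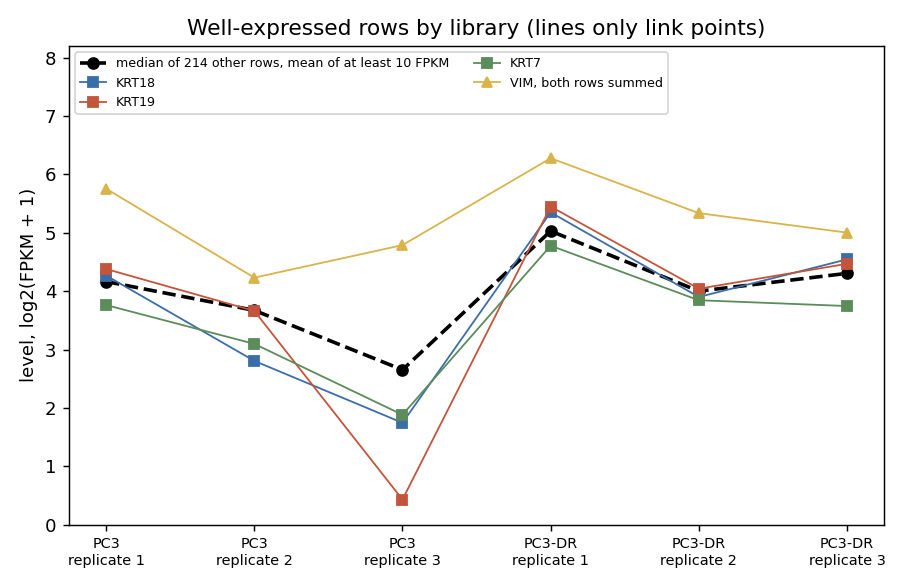
Level on the log2(FPKM + 1) axis by library for KRT18, KRT19, KRT7, the sum of both VIM rows, and the median of the 214 other rows with a mean of at least 10 FPKM (dashed). KRT18, KRT19 and KRT7 have their low point in PC3 replicate 3 and their high point in PC3-DR replicate 1, as the dashed line has.

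The basal keratins were below KRT18, KRT19 and KRT7 in mean level in both lines. For KRT5 transcript the parental replicates 1 to 3 read 4.44, 4.29 and 1.34 FPKM, while the resistant replicates 1 to 3 read 6.25, 2.71 and 3.21 FPKM. These ranges overlapped widely, and the difference was 0.25 ± 0.45 on the log2(FPKM + 1) scale (SE; 95% interval -0.75 to 1.25; adjusted p = 0.923 in limma). KRT5 turned to -0.44 without PC3 replicate 3 and PC3-DR replicate 1, where it averaged 4.37 FPKM over the PC3 libraries left and 2.96 FPKM over those of PC3-DR.

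KRT14 transcript, whose protein pairs with that of KRT5, gave 2.56, 3.46 and 0 FPKM over PC3 replicates 1 to 3. The resistant libraries, again from replicate 1 to 3, gave 9.82, 4.62 and 3.24 FPKM. The value of 0 in PC3 replicate 3 allows up to 0.13 FPKM. PC3 replicate 2 lay above PC3-DR replicate 3, so the groups overlapped. The difference was 1.34 ± 0.59 (SE, adjusted p = 0.818 in limma) and 0.29 without the 2 libraries. KRT5 exceeded KRT14 in PC3 replicates 1 and 2, at 1.73-fold and 1.24-fold per length. In PC3-DR replicates 1 to 3 the FPKM ratio of KRT5 to KRT14 was 0.64, 0.59 and 0.99. This ratio was not planned and has no value in PC3 replicate 3, where KRT14 was at 0. How many other pairs of rows separate in this way was not counted. The ratio of CDH1 to EPCAM, also not planned, overlapped between the lines.

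**Figure D3:**
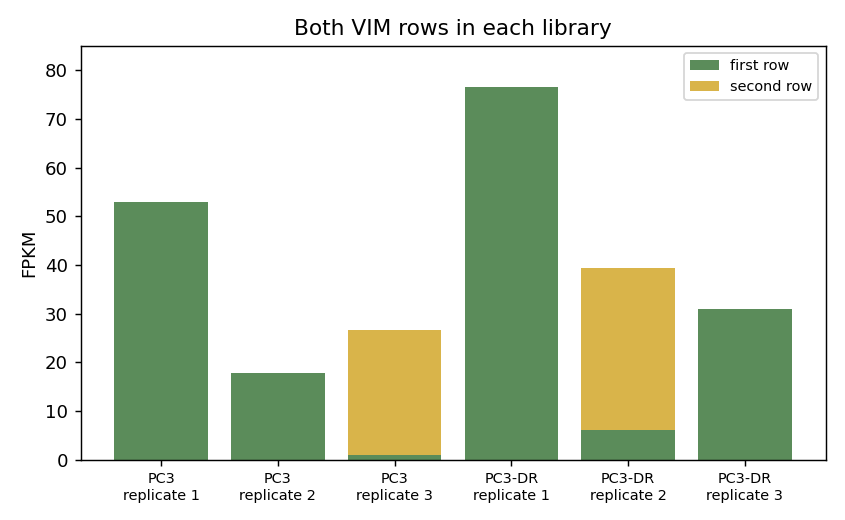
FPKM of both VIM rows, stacked, in each library. The second row is above 0 in PC3 replicate 3 and PC3-DR replicate 2 and holds most of the VIM level there, while the first row holds all of it in the other 4 libraries.

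VIM had the highest mean level of the 9 genes in both lines, also by its first row alone. Which of its 2 rows held most of that level differed between libraries. Whether the transcripts changed or reads were assigned differently between the rows was not tested. The first row measured 53.0, 17.8 and 1.00 FPKM across PC3 replicates 1 to 3, and 76.6, 6.11 and 31.1 FPKM across those of PC3-DR. The second row reached 25.6 FPKM in PC3 replicate 3 and 33.3 FPKM in PC3-DR replicate 2, from 789 and 1140 reads, and at 0 in the other 4 libraries, where 3 reads would give between 0.03 and 0.10 FPKM. The 2 libraries with the second row, 1 of each line, were the 2 with the lowest first row. There the first row made up 3.76% and 15.5% of the sum of both rows, and it made up 100% elsewhere.

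Summed over both rows, VIM came to 53.0, 17.8 and 26.6 FPKM across PC3 replicates 1 to 3, and to 76.6, 39.4 and 31.1 FPKM across those of PC3-DR. The highest library exceeded the lowest 76.3-fold in the first row alone and 4.30-fold in the sum. This sum averaged 32.5 ± 18.3 FPKM for the parental and 49.0 ± 24.2 FPKM for the resistant line (SD, n = 3 each), and the groups overlapped. Without PC3 replicate 3 and PC3-DR replicate 1 it averaged 35.4 FPKM over the remaining PC3 libraries and 35.2 FPKM over those of PC3-DR. The difference was 1.04 ± 1.14 (SE, adjusted p = 0.901 in limma) for the first row and 0.61 (adjusted p = 0.898 in limma) for the sum. For the first row it turned to -0.29 without PC3 replicate 3 and to -1.08 without that library and PC3-DR replicate 1. The second row reached 1 FPKM in 2 libraries and did not enter the test. In RefSeq the antisense gene VIM-AS1 overlaps VIM on the opposite strand, and whether the counting used strand is not given in the sources used here, so reads of the 2 genes cannot be told apart.

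CDH1 transcript had the lowest mean of the 9 genes in PC3-DR and the lowest but KRT8 in PC3. It stood between percentiles 73.0 and 95.7 of all mRNA-table rows in 5 libraries and at 43.9 in PC3 replicate 2. PC3 replicates 1 to 3 had 1.63, 0.14 and 0.78 FPKM, and the resistant replicates 1 to 3 had 2.34, 1.15 and 1.36 FPKM, from between 10 reads in PC3 replicate 2 and 493 reads in PC3-DR replicate 1. The 3 PC3-DR values overlapped PC3 only through PC3 replicate 1. The difference was 0.56 ± 0.41 on the log2(FPKM + 1) scale (SE; 95% interval -0.35 to 1.46; adjusted p = 0.896 in limma), and on this scale changes of such low rows are understated. It was 0.25 without PC3 replicate 2, 0.37 without PC3-DR replicate 1 and 0.38 without PC3 replicate 3 and PC3-DR replicate 1.

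EPCAM transcript varied little within PC3, where replicates 1 to 3 had 1.90, 1.47 and 2.13 FPKM, and PC3 replicate 3 was its highest PC3 library. Resistant replicates 1 to 3 had 6.67, 1.74 and 2.08 FPKM, so that replicates 2 and 3 lay within the PC3 range and replicate 1 stood above it. The difference was 0.51 ± 0.44 (SE; 95% interval -0.47 to 1.49; adjusted p = 0.898 in limma), and it was 0.04 without PC3-DR replicate 1 and 0.12 without that library and PC3 replicate 3.

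**Figure D4:**
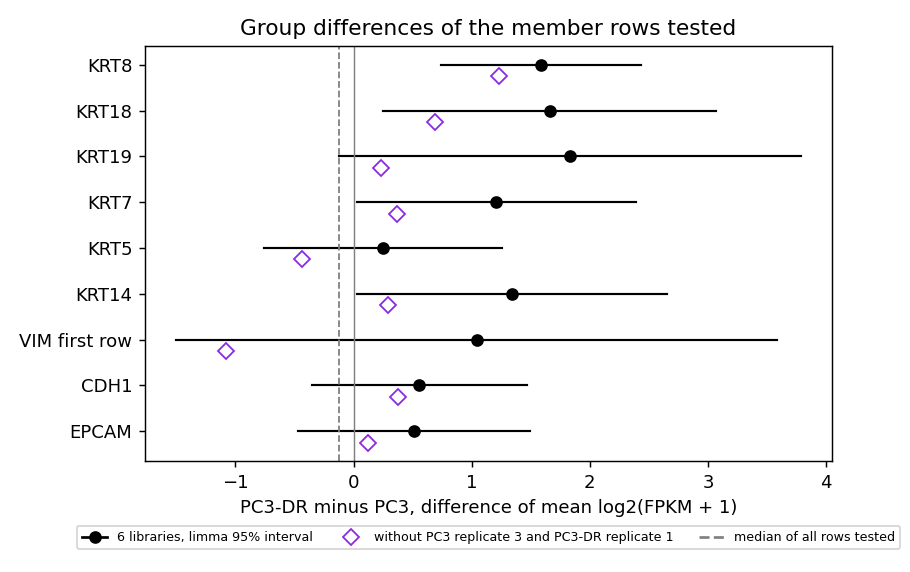
Difference PC3-DR minus PC3 of mean log2(FPKM + 1) for the 9 rows tested, as points with 95% intervals from limma over 6 libraries, and as open diamonds without PC3 replicate 3 and PC3-DR replicate 1. In the smaller fit KRT8 is at 1.23, and KRT5 and the first VIM row are below 0. PC3 replicate 3 and PC3-DR replicate 1 were the lowest and highest libraries of KRT5 and that VIM row. The highest KRT8 library was PC3-DR replicate 2, so these shifts cannot be set against each other.

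Across the members, 9 of 10 rows had at least 1 FPKM in at least 3 libraries and were tested, and 0 of the 9 passed the adjusted threshold in limma, against 1 of all 24937 tested rows (0.00401%). KRT8 and CDH1 passed this filter through PC3-DR, with 1 PC3 library each at 1 FPKM, so the counts over the 9 are a description only. At an unadjusted p under 0.05, 4 of the 9 were higher in PC3-DR (KRT8, KRT18, KRT7 and KRT14), where 2.45% of all tested rows were. All 9 differences were above 0, against 39.9% of tested rows, and their median was 1.21, against -0.13 over all tested rows. These shares were not counted among rows of like level. Most well-expressed rows outside the members were lowest in PC3 replicate 3 and highest in PC3-DR replicate 1, so the contrast may not be particular to the members. The two-sided exact permutation test over the 6 libraries, whose smallest possible p is 0.1, gave 0.1 for KRT8, 0.2 for KRT18, KRT19, KRT7 and KRT14, and between 0.3 and 1 for the others.

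The size of the members' differences varied with the scaling between libraries. With median-of-ratios scaling 9 of the 9 stayed above 0, with a median of 1.48, and with quantile normalization 9 did, with a median of 0.75. After division by the median ratio of 192 well-expressed rows outside the members that were above 0 in every library, a scaling added after the data were seen, 7 of the 9 differences were above 0, their median was 0.33, and the median of all tested rows was -0.63. Those 192 rows were also picked by a mean that includes PC3-DR replicate 1, whose values were divided by 2.16. On that scale KRT8 stood at 0.83, 1.01 and 0 in PC3 and at 1.82, 3.70 and 2.42 in PC3-DR, again without overlap, with a difference of 1.21 (adjusted p = 0.408 in limma). KRT5 turned round, with 3.63, 5.19 and 3.66 in PC3 above 2.89, 2.48 and 2.56 in PC3-DR, a difference of -0.49 (adjusted p = 0.588 in limma). That difference was above the median of all tested rows on this scale (-0.63). The share of all tested rows whose groups did not overlap on this scale was not counted. The VIM sum also turned round, to 45.8 ± 25.7 for the parental and 32.1 ± 6.34 for the resistant libraries (SD, n = 3 each), a difference of -0.36 on the log2 scale, and its groups overlapped. EPCAM turned to -0.26, and CDH1 was at 0.02. KRT7 narrowed to between 7.34 and 12.2 over all 6 libraries, while KRT19 in PC3 replicate 3 stayed apart at 0.95, against between 14.1 and 19.8 in the other 5.

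**Figure D5:**
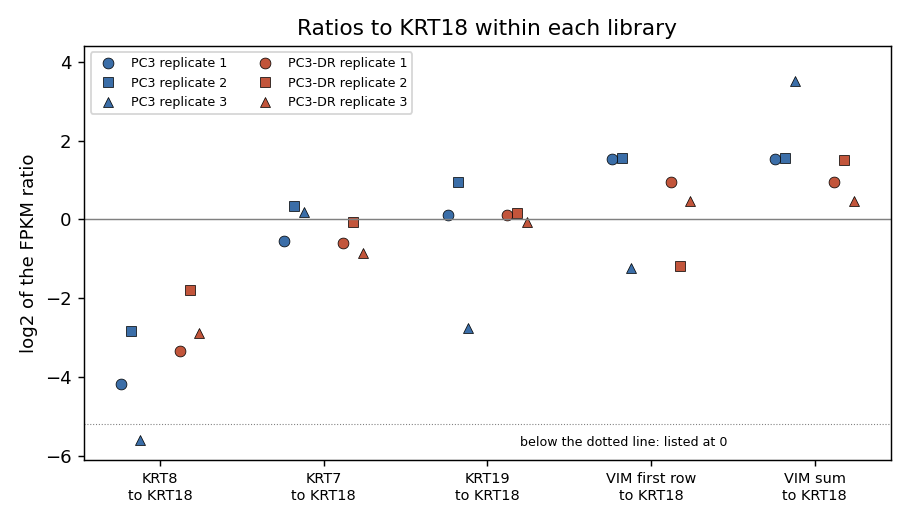
Log2 of the ratio of FPKM values to KRT18 within each library (symbols as in the plot of member levels; below the dotted line, KRT8 listed at 0). KRT7 stays within a narrow band around KRT18 in all 6 libraries, whereas KRT19 drops out of its band in PC3 replicate 3 and the first VIM row does so in PC3 replicate 3 and PC3-DR replicate 2.

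Ratios within a library do not depend on library scaling. Per length, the listed KRT8 row lay below the listed KRT18 row in every library. Its FPKM ratio to KRT18 was 0.06, 0.14 and 0 in PC3 replicates 1 to 3. In PC3-DR replicates 1 to 3 it was 0.10, 0.29 and 0.14, so the ranges overlapped. Other transcripts of both genes were not analysed, so this ratio compares rows and not the whole genes or their proteins. The ratio of KRT7 to KRT18 ran from 0.56 to 1.26 over the 6 libraries. KRT19 was between 0.95 and 1.94 times KRT18 in 5 libraries and 0.15 times in PC3 replicate 3. The VIM sum was 2.90, 2.97 and 11.3 times KRT18 in PC3 and 1.92, 2.83 and 1.39 times in PC3-DR, so that all 3 PC3-DR ratios lay below all 3 PC3 ratios. This order was noticed after the values were seen, and PC3-DR replicate 2 lay only just below PC3 replicate 1. KRT18 itself was lowest in PC3 replicate 3 (2.35 FPKM, 53 reads), which raises ratios to it there. How many other rows have ratios to KRT18 that separate in this way was not counted. In order of mean level, the VIM sum came first in both lines, followed by KRT19, KRT18 and KRT7, with 10.6, 8.87 and 7.61 FPKM in the parental and 26.4, 25.4 and 17.4 FPKM in the resistant line. The rest differed in order between the lines. For PC3 it was KRT5 (3.36), KRT14 (2.01), EPCAM (1.83), CDH1 (0.85) and KRT8 (0.62 FPKM). For PC3-DR it was KRT14 (5.89), KRT5 (4.06), KRT8 (3.67), EPCAM (3.49) and CDH1 (1.62 FPKM). Neighbours in both orders had overlapping values, except KRT7 and KRT14 in PC3-DR.

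Across the 6 libraries KRT7 and KRT19 had the highest correlations with KRT18 among the members. Over log2(FPKM + 1), KRT7 ranked 153 of 24936 other tested rows in Pearson correlation with KRT18 (r = 0.97, Spearman rho = 0.77), KRT19 ranked 510 (r = 0.93, rho = 1.00), and KRT8, its partner, ranked 1380 (r = 0.85, rho = 0.66). PC3 replicates 2 and 3 were the 2 libraries farthest from the KRT18 median. Without them, with PC3 replicate 1 and the PC3-DR libraries kept, r was 0.86 for KRT7, 0.99 for KRT19 and 0.25 for KRT8. The relation of KRT8 to KRT18 thus depends on which libraries are kept. In the same 4 libraries r was 0.94 for EPCAM, 0.91 for CDH1 and 0.85 for KRT5, so a high r there was not particular to the simple keratins. EPCAM stood at 6.67 FPKM in PC3-DR replicate 1 and between 1.74 and 2.08 FPKM in the others kept. Over all 6 libraries r was 0.59 for EPCAM (rank 3718), 0.78 for CDH1 (rank 1972) and 0.77 for KRT5 (rank 2078). The rows most like KRT18 were ENST00000260324 and ENST00000610935 (r = 1.00 each), and those most like the first VIM row were ENST00000173527 and ENST00000366794 (r = 0.99 each). Gene names for these 4 identifiers were not found in the tables used here. KRT5 had the highest r with the first VIM row among the members (r = 0.93, rank 214). The 2 libraries farthest from the median of that VIM row were PC3 replicate 3 and PC3-DR replicate 2, where the second row held most of the VIM level. Without them r was 0.65 for KRT5 and 0.94 for CDH1, so this order rests on those libraries. Correlations with the first row thus mix the VIM level with its split between the 2 rows. These values describe 6 libraries that share the shifts in well-expressed rows given above, and their part in the correlations was not tested.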

How the data were processed

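Values were taken from the deposited normalized mRNA table and, for library summaries, the lncRNA table. The submitters' processing notes list the aligners HISAT2 and TopHat2, the assembler StringTie, the counter featureCounts and the packages limma and DESeq, without roles. They also list mm9, a mouse build, for these human samples. Strand setting, filters and annotation release are not given in any source used here. The deposited values were read as FPKM because they resolved into whole reads. A whole-number length between 200 and 60000 nt gave whole reads in every library, within at most 0.08 of a read, for 99.99% of the 71088 rows above 0 in at least 3 libraries. Read numbers, lengths and totals are thus inferred, and reads cannot be told from fragments. KRT8 and KRT18 have many processed pseudogenes, and KRT5 and KRT14 have close paralogs, so their levels are uncertain where reads were shared.

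Rows that reached 1 FPKM in 3 or more libraries entered limma 3.58.1 (R 4.3.3), fitted to log2(FPKM + 1) by group alone with trended variances. Its two-sided p-values were adjusted by Benjamini-Hochberg over 24937 rows, with a threshold of 0.05. Promoters came from RefSeq (GRCh38.p14). Gene symbols of the members came with their identifiers, and further lists of epithelial and mesenchymal genes and marker genes were not analysed here because no table pairs the rows with symbols. Every member was named, and the rows most like KRT18 and the first VIM row were the 2 with the highest Pearson correlation. Members and lists were chosen with earlier results of these data known. At most 0.002% of values above 0 were equal between any pair of libraries, so all 6 were kept. 0 columns lacked a sample. Figures were drawn with matplotlib 3.10.9.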

Additional observations from a re-analysis of the deposited data

How the results depend on the processing

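The planned limma fit called 1 mRNA-table row. The call was lost, leaving 0, under either other pseudocount (0.1 or 5), without the filter, with it raised to 5 FPKM, after median-of-ratios scaling and without the trend, whereas robust hyperparameters gave 6. Leaving out single libraries gave between 0 and 1. Of the settings added after seeing the data, voom on recovered reads gave 0, leaving out PC3 replicate 3 and PC3-DR replicate 1 gave 0, and rescaling by well-expressed rows gave 16 (7 higher and 9 lower in PC3-DR, against 1 and 0). Between 57 and 3008 rows reached an unadjusted limma p under 0.05 in the settings with 0 calls. The 57 were of 794 rows tested with the filter of 5 FPKM, and the 3008 were of 102731 tested without the filter. No member passed in any of the 158 fits of a member under an alternative, and 151 kept the direction. Leaving out single libraries gave KRT5 between -0.15 and 0.46 and the first VIM row between -0.29 and 2.09. KRT5 reversed to -0.15 without PC3 replicate 3, -0.04 without PC3-DR replicate 1, -0.44 without both and -0.49 after rescaling by well-expressed rows. The first VIM row reversed to -0.29 without PC3 replicate 3 and -1.08 without both, and EPCAM to -0.26 after that rescaling. The cause was not tested. KRT8 ran from 0.63 with a pseudocount of 5 to 3.84 with voom on recovered reads, which are different scales. Its adjusted p lay between 0.236 and 0.987 in limma.

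The fit with a replicate block called 0 rows in limma, and 1707 had p under 0.05 before adjustment. Deviations of same-numbered libraries correlated at between -0.004 and 0.192, and the labels tie no numbers together. Median-of-ratios scaling moved the median of all tested rows from -0.13 to 0.004. KRT8, KRT14, CDH1 and EPCAM rest on few reads in PC3, at most 129 in any PC3 library, which limits what their low levels can show.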
